A study of Oryza sativa with 36 samples.

Results

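N6-methyladenosine (m6A) peaks in genes were compared between shoots of FTOmut rice and of wild-type rice. FTOmut plants carry a variant of FTO, an RNA demethylase of animals, whose demethylating activity is dead. The comparison is a control for carrying the transgene without a working enzyme. Whether the protein was present could not be checked here. It uses the 4 lists of peaks in genes from these shoots, 2 replicates of each genotype, which together hold 55557 peaks. Each list was made from an immunoprecipitated (IP) and an input library, so the lists stand for 8 of the 36 samples of the series.

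All plants were rice (Oryza sativa) of the cultivar Nipponbare, raised in nutrient solution under days of 12 h light, with 26 °C in the light and 22 °C in the dark, and harvested at 15 days of age. The labels give wild type no transgene, and describe FTO and FTOmut rice as homogeneous transgenic plants. The labels name neither the promoter that drives the transgenes nor the number of lines behind a genotype. FTO shoots and the roots of FTOmut and wild type, each with 2 lists, were used only as further readings at the regions found. For m6A-seq, poly(A) RNA was broken to fragments of about 100 nt, enriched with an antibody to m6A and sequenced in pairs of 150 bp. Nothing in the labels says whether the plants of the replicates were grown apart, and p-values therefore cover only the spread between these samples.

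m6A is the most common internal mark of messenger RNA. In plants it is written by a methyltransferase complex built around MTA and MTB, removed by demethylases of the ALKBH family, and read by proteins with a YTH domain, which affect how long a transcript lasts and how it is used. It is known mainly near stop codons and in 3′ untranslated regions. FTO removes m6A in animal cells, and land plants have no close relative of it. In m6A-seq a peak is a stretch of transcript with more IP than input reads, and its fold, given by the authors for each peak, is the ratio of IP over input there. A fold therefore describes enrichment at a site relative to the amount of that transcript, and not the number of methylated molecules.

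FTOmut shoot lists held 14557 and 14096 peaks, and wild-type lists 12963 and 13941. Both FTOmut lists were longer than both wild-type lists. The means were 14326.5 ± 326.0 and 13452 ± 691.6 (SD, n = 2 lists each), a difference of 874.5 peaks or 6.50% of the wild-type mean. The exact two-sided permutation test gave p = 0.333, the smallest that 2 lists against 2 allow, so peak numbers could not pass a threshold of 0.05 in this design. With any 1 list left out the order of the group means could not change, since the lists of the genotypes did not overlap in length. The size of the difference ran from 385.5 without wild-type replicate 1 to 1363.5 without wild-type replicate 2. The FTO shoot lists, with 14728 and 14187 peaks, were as long as those of FTOmut.

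More genes held a peak in FTOmut. Peaks fell in 12587 and 12221 genes in FTOmut and in 11514 and 12003 in wild type, 5.49% more on average. Genes with more than 1 peak made up 9.63% and 10.6% of these in FTOmut against 7.82% and 10.4% in wild type, and these groups overlapped. Peaks covered 3.64 and 3.51 Mb in FTOmut and 3.35 and 3.50 Mb in wild type. FTOmut peaks were slightly shorter, with a median width of 231 nt in both lists against 241 and 239 nt. The median fold over all peaks was 25.5 and 25.4 in FTOmut and 26.0 in both wild-type lists, so the longer lists had the lower median. The depth of the m6A-seq libraries is unknown, since the lists give no read counts, and its part in the length of a list was not tested.

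Peaks of the 4 lists that shared at least 1 bp on the same strand were joined into 17703 regions. Of these, 10367 or 58.6% (95% Wilson interval 57.8 to 59.3%) held a peak in all 4 lists. These regions made up 72.5% and 75.4% of the regions of the FTOmut lists and 81.8% and 76.0% of those of the wild-type lists. Another 20.2% of the regions occurred in exactly 1 list. Intervals on shares of regions cover counting error only.

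**Figure D1:**
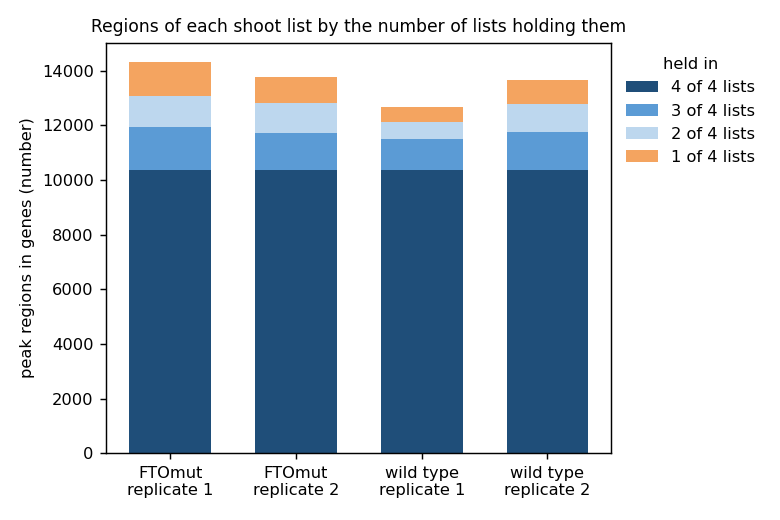
Number of peak regions (y axis) in each of the 4 shoot lists (x axis), coloured by how many of the 4 lists hold the region. The dark blocks are the same 10367 regions in every bar, and the bars differ in the regions held by fewer lists, from 529 regions found in wild-type replicate 1 alone to 1237 found in FTOmut replicate 1 alone.

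Lists of different genotype shared almost as many regions as replicates did. The FTOmut replicates shared 75.2% of the regions found in either of them, and the wild-type replicates 76.1%. The 4 pairs of 1 FTOmut and 1 wild-type list shared between 73.4% and 74.2%. Counted by peaks, 84.1% of FTOmut replicate 1 peaks overlapped a peak of FTOmut replicate 2, while 80.0% and 82.9% overlapped a peak of wild-type replicate 1 and 2. Of wild-type replicate 1 peaks, 89.7% overlapped the other wild-type list, and 90.2% and 88.1% the FTOmut lists. By this count, agreement of that list with FTOmut replicate 1 was as high as with its own replicate. A longer list offers more peaks to overlap, and FTOmut replicate 1 was longer than wild-type replicate 2. Of the regions found in either list, wild-type replicate 1 shared 76.1% with its own replicate, and 73.8% and 73.4% with FTOmut replicates 1 and 2.

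Regions held by both lists of 1 genotype and neither list of the other were few, and more numerous for FTOmut. There were 577 FTOmut-only regions (3.26% of all regions, interval 3.01 to 3.53%) and 288 wild-type-only regions (1.63%, 1.45 to 1.82%). As shares of the replicated regions, they were 4.79% of the 12046 found in both FTOmut lists and 2.53% of the 11371 found in both wild-type lists. Another 1070 regions (6.04%) were held by 1 list of each genotype and by neither of the other replicates, a pattern that cannot follow genotype. That count pools every pairing of an FTOmut with a wild-type list, while each genotype-only count comes from a single pairing. The counts therefore cannot be compared directly. No region can be tested alone with 2 lists against 2. Without wild-type replicate 1, the shortest list, the order of the 2 counts was reversed, with 998 FTOmut-only and 1158 wild-type-only regions. Without wild-type replicate 2 the counts were 1258 and 817. Counts rise when a list is left out because fewer lists then have to agree. With 1 wild-type list left, a wild-type-only region needs only that list, while an FTOmut-only region still needs 2. This favours the wild-type-only count, so whether the order rested on wild-type replicate 1 cannot be told from it.

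The genotype-only regions were weak and short compared with the shared ones. Their median fold was 11.5 for FTOmut-only and 11 for wild-type-only regions, against 33.8 for regions in all 4 lists and 11 for those in 1 list of each genotype. Median widths were 151, 160, 261 and 150 nt in the same order. A log10 FDR of -5 or below was met by 66.9% of FTOmut-only and 72.2% of wild-type-only peaks, against 93.1% of shared ones and 63.0% of those in 1 list of each genotype. Only 24 FTOmut-only regions (4.16%) and 6 wild-type-only regions (2.08%) reached the median fold of their list in both replicates, while 4491 shared regions (43.3%) reached it in all 4 lists. In median fold and width the genotype-only regions were close to those found in 1 list of each genotype.

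Most genotype-only regions lay in genes with no other peak in the opposite genotype, which was so for 434 of the 577 FTOmut-only regions (75.2%) and 183 of the 288 wild-type-only regions (63.5%). A further region present in all 4 lists lay in the same gene for 80 (13.9%) and 60 (20.8%) of them. By chromosome, FTOmut-only regions made up between 2.72% of the regions on chromosome 1 and 4.17% on chromosome 2. Wild-type-only regions made up between 1.01% on chromosome 5 and 2.21% on chromosome 10. On each of the 12 chromosomes FTOmut-only regions were the more numerous. Chromosomes share the same lists and are not replicates, and the order of the total counts was reversed without wild-type replicate 1, under the uneven criterion given above.

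The strongest FTOmut-only region among genes with a log2 CPM (gene counts scaled to the size of the library) of at least 1 in every FTOmut and wild-type RNA-seq library lay at chr3:13309393-13309713 on the plus strand. Its folds were 168 and 120 in FTOmut, where the wild-type lists had no peak, and it also had a peak in both wild-type root lists with folds of 69 and 73.5. The second, at chr2:19795941-19796161 on the plus strand, had folds of 76.5 and 87 in FTOmut, and 200 and 160 in FTO shoot. Among genes that met the same threshold of RNA, the strongest wild-type-only regions were on the plus strand. They lay at chr8:26142739-26143059 with folds of 22.2 and 34 and at chr12:24746274-24746524 with 20.5 and 24. Without this threshold, the smaller fold of a wild-type-only region reached 44. The regions on chromosomes 8 and 12 both had a peak in both FTO shoot lists. Each of these 4 regions thus occurred in plants of another genotype or tissue. Positions are given as in the lists, whose genome build is not given in the sources used here, and the part of the transcript a peak lies in was not analysed here.

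At the 10367 regions held in all 4 lists, fold was tested with limma on the log2 scale. No region passed the test: 0 were higher (0.0%) and 0 lower (0.0%) in FTOmut at a Benjamini-Hochberg adjusted p under 0.05, and the smallest adjusted p was 0.717. An unadjusted p under 0.05 was reached by 668 regions (6.44%), 420 higher and 248 lower. The median difference over all these regions was a log2 of 0.05, with quartiles of -0.39 and 0.51. Differences of more than 2-fold were found at 987 regions higher in FTOmut (9.52%) and 614 lower (5.92%), none of which passed the test. With centred lists the regions with an unadjusted p under 0.05 were split 383 to 318.

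Precision at single regions was low. The median SE was 0.56 on the log2 scale and the median half-width of the 95% interval 1.28, so a typical region could hide a difference of 2-fold. In 0.424% of regions the interval lay wholly within 2-fold. Missing the threshold therefore does not show that single sites had equal folds.

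**Figure D2:**
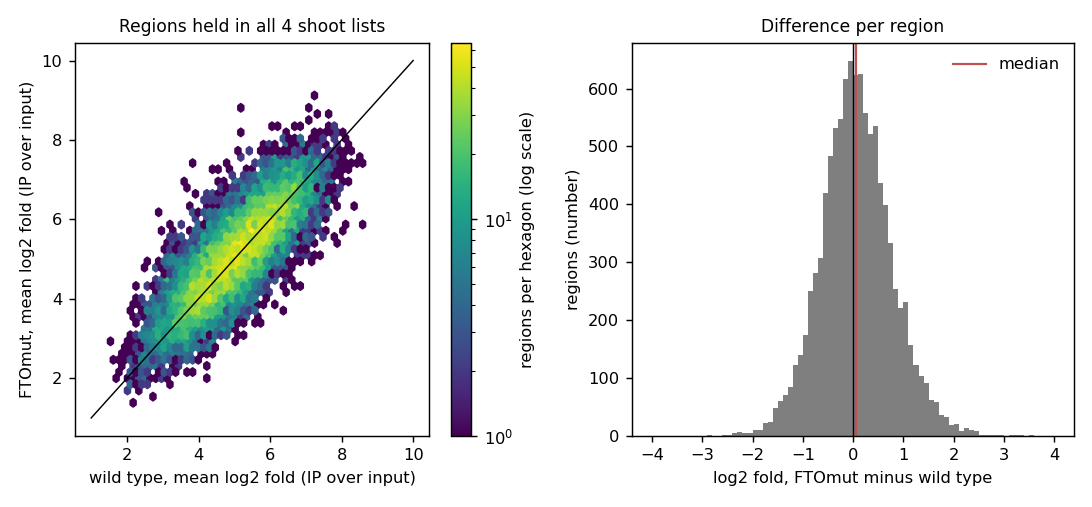
Left, mean log2 fold in FTOmut (y axis) against that in wild type (x axis) at the 10367 regions held in all 4 lists, with hexagons coloured by the number of regions on a log scale and the diagonal of equal fold. Right, number of regions (y axis) by the log2 fold difference, FTOmut minus wild type (x axis), with the median of 0.05 in red beside the black line at 0.

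List medians at these shared regions were 36.5 and 34.3 in FTOmut and 32.6 and 35.0 in wild type. The groups overlapped, with a log2 difference of 0.07 (exact two-sided permutation p = 0.667). Median widths of the shared regions were 269 and 261 nt against 270 and 269 nt. Across the regions, folds of the FTOmut replicates correlated at a Spearman rho of 0.735, those of the wild-type replicates at 0.718, and pairs across genotypes between 0.690 and 0.711. These are descriptions across regions, which are not replicates and share the libraries. Folds lay within 2-fold of each other at 74.3% of regions between FTOmut replicates, 73.6% between wild-type replicates, and 70.6 to 73.0% across genotypes. Lists of different genotype thus differed by little more than replicates did.

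The regions with the smallest p in each direction are given next. Larger differences occurred at other regions, up to 3.54 and down to -2.83. LOC_Os07g23030 (chr7:12990928-12991466, minus strand) had folds of 52 and 94 in FTOmut and 7 in both wild-type lists, a log2 difference of 3.32 (SE 0.53, limma adjusted p = 0.717). FTO shoot had 17 and 18 there. LOC_Os09g29670 (chr9:18045793-18046013, plus strand) had 100 and 121 in FTOmut against 9 and 16.5, a difference of 3.17 (SE 0.55), and 37.3 and 42 in FTO shoot. At both, FTO lay between the genotypes. Lower in FTOmut was LOC_Os01g15448 (chr1:8658189-8658466, plus strand) with 12.4 and 13.8 against 88 and 71, a difference of -2.60 (SE 0.50), and 101 and 34 in FTO shoot. LOC_Os11g07440 (chr11:3739720-3739930, minus strand) had 3.79 and 4.11 against 27 and 13.2, a difference of -2.26 (SE 0.48), and 13.4 and 6 in FTO shoot. FTO was above wild type in 1 list and between the genotypes in the other at LOC_Os01g15448, and was split around the lower wild-type value at LOC_Os11g07440. The adjusted p was 0.717 at each of the 4, and no name is paired with these identifiers in the files. The RNA of LOC_Os07g23030 was scarce, with log2 CPM between -2.04 and 0.54 in the 4 libraries.

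Genes of known pathways were read from lists of 66 rice genes, of which 48 could be named. At least 1 peak region was held by 31 of the 66, and a region in all 4 lists by 19. In their strongest such region 14 of these 19 had the higher mean fold in FTOmut, against 53.0% of all shared regions, with a median log2 difference of 0.36 against 0.05 over all shared regions. The FTOmut lists lay wholly above the wild-type lists at 5 of the 19, and wholly below at 1. Over all shared regions that was the case at 19.8% and 16.3%. None of the 19 reached an unadjusted p under 0.05 in limma, and 0 passed the adjusted threshold.

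**Figure D3:**
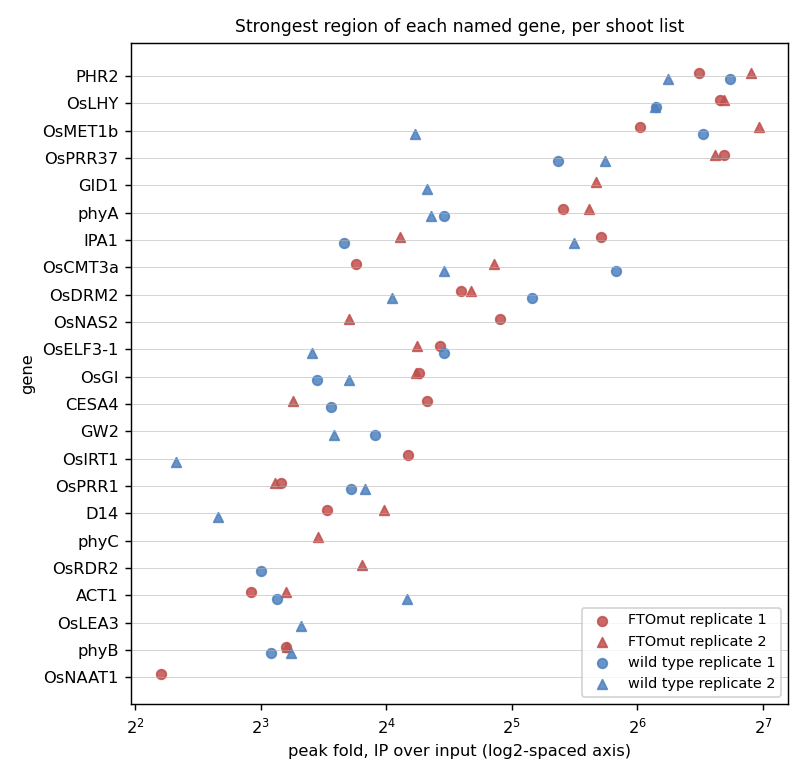
Peak fold, IP over input (x axis, spaced by log2), in the strongest region of each named gene that had a peak (y axis), with FTOmut in red, wild type in blue, and replicates 1 and 2 as circles and triangles. A missing symbol means that the list holds no peak there. OsPRR37, OsLHY, OsGI and phyA show both FTOmut symbols to the right of both wild-type symbols and OsPRR1 shows them to the left, while the other genes interleave or lack a symbol in at least 1 list.

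A region in all 4 lists was held by 5 of 6 clock genes, against 39.6% of the 24463 genes tested in RNA-seq, and 57.7% and 56.2% in the groups of higher RNA level described below. OsPRR37, a pseudo-response regulator that delays flowering in long days, had folds of 103 and 98 in FTOmut and 41.4 and 53.4 in wild type at chr7:29628573-29629223 (plus strand). Its log2 difference was 1.095 (SE 0.51, limma adjusted p = 0.780). OsLHY, a MYB transcription factor of the morning loop, had 101 and 103 against 70.8 and 70.5, and OsGI, the rice GIGANTEA of the photoperiod pathway, 19.2 and 18.8 against 10.9 and 13. In these 3 genes the FTOmut values lay above both wild-type values, as at 19.8% of all shared regions, while 16.3% had the reverse. In OsPRR1, the relative of TOC1, they lay below, at 8.95 and 8.66 against 13.2 and 14.2, and in OsELF3-1, of the evening complex, they overlapped at 21.5 and 19.0 against 22 and 10.6. OsPRR95, another pseudo-response regulator, had no region in any of the 4 lists, although its log2 CPM was between 6.22 and 8.32. In FTO shoot the folds were 39.2 and 56 at OsPRR37, 713 and 99.7 at OsLHY, and 6.72 and 13.6 at OsPRR1. OsELF3-1 had 51.7 and 22 in FTO shoot, and OsGI a peak in FTO replicate 1 alone, with 13.9. The labels give no hour of harvest. Beside these folds, the RNA of OsLHY differed between the wild-type RNA-seq replicates, at a log2 CPM of 9.31 and 5.63, against 7.20 and 6.97 in FTOmut. Its part in the folds was not tested, and the RNA-seq libraries are not those of m6A-seq.

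Folds at the phytochromes, the red and far-red light receptors, gave different readings. phyA had folds of 42.5 and 49 in FTOmut against 22 and 20.5 in wild type at chr3:29168182-29168431 (minus strand), a log2 difference of 1.104 (SE 0.50, limma adjusted p = 0.773). FTO shoot had 15.2 and 24.2 there, close to wild type. phyB had 9.19 and 9.25 against 8.45 and 9.45, with overlapping groups, and phyC had a peak only in FTOmut replicate 2, with a fold of 11. Of the other named flowering gene, Hd1, no region was found.

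All 4 members of the list of the m6A writer complex had a region in all 4 lists, beside the same shares of all tested genes. Their log2 differences ran from -0.65 to 0.78 with a median of 0.46, and the genotypes overlapped at 3 of them. None can be named here, since their symbols could not be placed. Among the DNA methyltransferases, OsMET1b, which copies methylation at CG sites, had folds of 65 and 125 in FTOmut and 92 and 18.7 in wild type. OsCMT3a, a chromomethylase, had 13.5 and 29 against 57 and 22, and OsDRM2, the de novo enzyme, had 24.2 and 25.6 against 35.8 and 16.5. The genotypes overlapped in all 3. OsRDR2, an RNA-dependent RNA polymerase of small RNA synthesis, had a peak in 1 list of each genotype, with folds of 14 in FTOmut replicate 2 and 8 in wild-type replicate 1.

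Hormone and growth genes held the wild-type-only region among the named genes. GW2, a ubiquitin ligase that limits grain width, had folds of 15 and 12 in wild type at chr2:8121556-8121925 (plus strand) and no peak in FTOmut. Both FTO shoot lists had a peak there, with folds of 25 and 34, as had 1 FTOmut root list and 1 wild-type root list, each with 14. IPA1, a transcription factor that shapes tillers and panicles, varied more within than between genotypes, with 52.5 and 17.3 against 12.7 and 45. D14, the strigolactone receptor, had 11.5 and 15.8 in FTOmut and a peak of 6.31 in wild-type replicate 2 alone. GID1, the gibberellin receptor, had a peak in replicate 2 of each genotype, with 51 in FTOmut and 20 in wild type. SLR1, the DELLA repressor of gibberellin responses, and OsBRI1, the brassinosteroid receptor, had no region although their RNA was present at a log2 CPM of at least 3.85. CESA4, a cellulose synthase of secondary walls, had 20 and 9.55 in FTOmut and 11.8 in wild-type replicate 1, while CESA7 and CESA9 had no region.

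Nutrient genes held the FTOmut-only region among the named genes. OsNAS2, a nicotianamine synthase that makes the precursor of iron chelators, had folds of 30 and 13 in FTOmut at chr3:10927781-10927950 (plus strand), and no peak in wild type or in any of the 4 root lists. FTO shoot replicate 1 had 72 there. Beside this, the RNA of OsNAS2 was low or uneven in shoot, with log2 CPM of -0.84 and -0.17 in FTOmut and 4.99 and -2.91 in wild type. Of the other iron genes, OsNAAT1, an aminotransferase of the same pathway, had a fold of 4.62 in FTOmut replicate 1 alone. OsIRT1, a carrier of ferrous iron, had 18 in FTOmut replicate 1 and 5 in wild-type replicate 2. PHR2, the regulator of the phosphate starvation response, was among the most enriched at 89.8 and 120 against 107 and 76, with overlapping groups. OsLEA3, a protective protein of drying tissue, had a peak of 10 in wild-type replicate 2 alone.

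Some abundant or well-known groups had no m6A region in any of the 4 lists. These were all 7 photosynthesis genes, Cab1R and Cab2R (chlorophyll-binding proteins) and OsRCA (rubisco activase) among them, although the 6 of them with RNA counts had log2 CPM between 6.82 and 11.79 in shoots. All 6 genes of diterpenoid phytoalexins, with log2 CPM of at most 2.82, and PBZ1, a defence gene, also had none. ACT1, an actin gene often used as a reference, had folds of 7.60 and 9.20 in FTOmut and 8.75 and 17.9 in wild type.

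The genotype-only regions were then looked up in lists that had not been used to sort them. Of the 577 FTOmut-only regions, 184 (31.9%, interval 28.2 to 35.8%) had a peak in both FTO shoot lists and 218 (37.8%) in neither. Of the 288 wild-type-only regions, 117 (40.6%, 35.1 to 46.4%) had a peak in both FTO shoot lists and 96 (33.3%) in neither. The larger share in FTO, which is transgenic as FTOmut is, was thus that of the wild-type-only regions, though the intervals overlapped. For regions in 1 list of each genotype the share was 36.6%, and for regions in all 4 lists it was 96.6%.

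**Figure D4:**
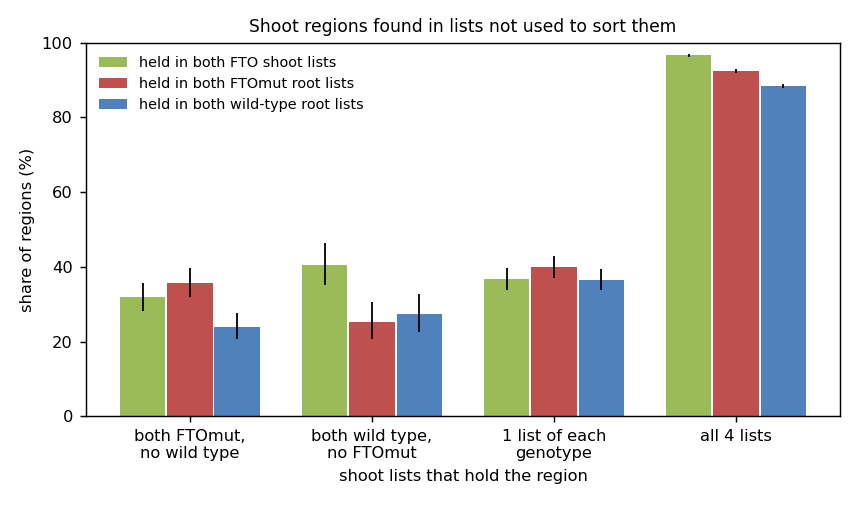
Share of shoot regions (y axis, %) with a peak in both FTO shoot lists (green), both FTOmut root lists (red) and both wild-type root lists (blue), by the shoot lists that hold the region (x axis), with 95% Wilson intervals as bars. Regions in all 4 shoot lists reach 88.4 to 96.6%, while the genotype-only classes lie between 23.9 and 40.6%.

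In roots, FTOmut-only shoot regions were found more often in the FTOmut lists, of 14854 and 14700 peaks, than in the wild-type lists, of 14779 and 14054. Both FTOmut root lists held 206 of them (35.7%, 31.9 to 39.7%) and both wild-type root lists 138 (23.9%, 20.6 to 27.6%). The pattern seen in shoot, in both FTOmut and neither wild-type list, recurred in root at 47 regions (8.15%, 6.18 to 10.7%), and its reverse occurred at 12 (2.08%, 1.19 to 3.60%). Wild-type-only regions were split evenly, with 13 (4.51%) each way. A lean to FTOmut was also present among regions in all 4 shoot lists, where 2.13% had the FTOmut pattern in root and 0.444% its reverse, and among those in 1 list of each genotype, at 6.07% and 3.46%. Beside this, FTOmut roots held more RNA of green tissue. The summed CPM of 6 photosynthesis genes was 1108 and 560 in FTOmut root against 164 and 194 in wild-type root. At LOC_Os12g17600, 1 of these 6, the root values of the genotypes overlapped. The part of green-tissue RNA in the root peaks was not tested.

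FTO and FTOmut were compared directly at the 10007 regions held in all 6 shoot lists. This contrast sets transgenic plants with the active form against transgenic plants with the inactive form. Wild type does not enter the difference itself. The wild-type lists do enter the choice of regions and the estimate of spread behind the p-values. Median folds were 43.8 and 41.0 in FTO, 37.9 and 35.1 in FTOmut, and 33.4 and 36.5 in wild type. Both FTO medians were above all others, while those of FTOmut and wild type overlapped. The median log2 difference over regions was 0.21 for FTO over FTOmut. In limma 0 regions passed (0.0%, smallest adjusted p = 0.448), while 754 (7.53%) had an unadjusted p under 0.05, 585 of them higher in FTO and 169 lower. With each list centred on its median this split was 327 to 330, which the centring itself brings towards even. Against wild type the median differences at the same regions were 0.05 for FTOmut and 0.27 for FTO. These 2 share the wild-type lists.

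RNA levels were read from RNA-seq of other libraries of the same groups, made after removal of ribosomal RNA, with 12970274 and 13917309 gene counts in wild-type shoot and 16371329 and 17606230 in FTOmut shoot. In such bulk libraries, fewer cells of a type and less RNA per cell cannot be told apart. FTOmut replicate 2 stood apart, with 36486 genes of at least 10 counts against 18065 to 22359 in the other 5 shoot libraries. Wild-type replicate 2 had a summed CPM of 1578 for the 6 photosynthesis genes against 5633 to 10015 in the other wild-type and FTOmut shoot libraries. FTO itself has no row in the tables used, so its presence could not be checked. Of 24463 genes tested with edgeR, 0 passed (0.0%) at an adjusted p under 0.05, and 2179 (8.91%) had an unadjusted p under 0.05. DESeq2, run on all 55252 genes with a count, called 378 genes. Over the genes of the main edgeR test, the median log2 fold change was 0.09 with all libraries. It was -0.26 without wild-type replicate 1 and -0.14 without wild-type replicate 2. Without FTOmut replicate 1 it was -0.45, and without FTOmut replicate 2 it was -0.025. The median thus turned negative with any FTOmut or wild-type library left out.

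Genes with FTOmut-only regions had a slightly higher RNA ratio of FTOmut over wild type than all tested genes, a difference that was smaller without FTOmut replicate 2 or wild-type replicate 1. Of their 531 genes, 405 could be tested, with a median log2 fold change of 0.27 against 0.09 over all tested genes. Both FTOmut libraries lay above both wild-type libraries in 80 of them (19.8%) and below in 50 (12.3%), while over all tested genes these shares were 12.1% and 11.9%. Genes with wild-type-only regions, 214 tested of 270, had a median of 0.11, with 32 (15.0%) above and 36 (16.8%) below. Genes with a region in all 4 lists had a median of -0.03, and genes without a region 0.28, close to those with FTOmut-only regions. Relative to the median of all tested genes, those with FTOmut-only regions lay 0.18 higher with all libraries, 0.044 higher without FTOmut replicate 2 and 0.072 higher without wild-type replicate 1. Those with wild-type-only regions lay 0.021 higher, but at -0.19 relative to all genes both without FTOmut replicate 2 and without wild-type replicate 2. Only genes that passed edgeR's filter on low counts enter these medians.

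**Figure D5:**
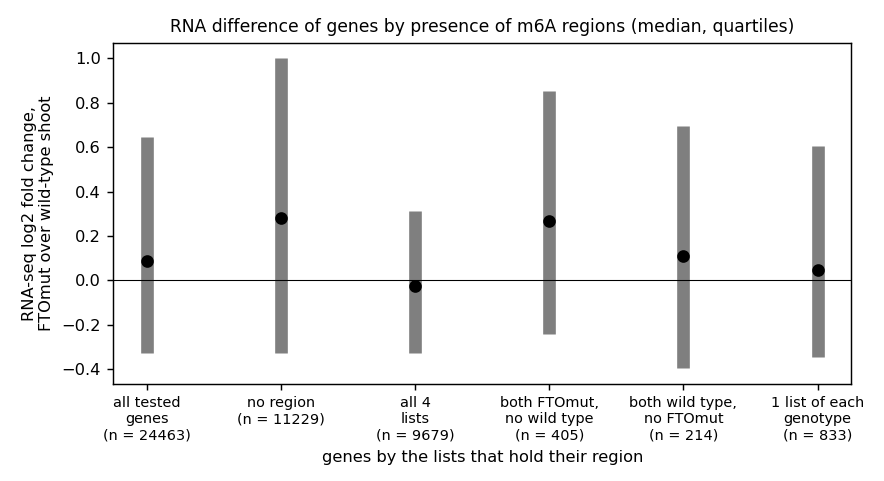
RNA-seq log2 fold change, FTOmut over wild-type shoot (y axis), of tested genes grouped by the shoot lists that hold their m6A region (x axis), with dots for medians and bars for quartiles over genes. Genes with FTOmut-only regions and genes with no region share a median near 0.27, and the quartiles of every group span 0.

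The share of genes with a region varied with the RNA level. Tested genes were ranked by their median log2 CPM per kb over the 4 libraries and divided into 4 equal groups of 6115 or 6116 genes. In the group of lowest RNA level, 27.0% of genes had a region in any list and 10.6% had one in all 4 lists. In the third group these shares were 70.6% and 57.7%, and in the group of highest level 65.3% and 56.2%. FTOmut-only regions instead occurred in 2.11% and 2.01% of genes in the lower groups and in 1.26% and 1.24% in the upper ones. Wild-type-only regions occurred in 0.948%, 1.14%, 0.899% and 0.507% of genes, from the lowest to the highest group. Genotype-only regions thus lay more often in genes of low RNA level, where a shared region was least frequent.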

How the data were processed

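For m6A-seq, the authors called peaks in each replicate from an IP and its input, and the labels name MeTPeak. The deposited lists give a fold (a ratio of IP over input), a log10 FDR and a p-value per peak. The genome build is not given in the sources used here, nor are the caller's settings. For RNA-seq, per the submitters' processing notes, cutadapt 1.15, HISAT2 2.1.0 and featureCounts of Subread 1.6.4 were used. The deposited table holds expected counts with fractions, which were rounded, and gene lengths as a column of another unit, per the file headers.

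Peaks sharing at least 1 bp of their blocks on 1 strand were joined into regions, each taking its highest fold per list. log2 folds at regions in all 4 lists were tested with limma 3.58.1 (trend, robust), two-sided, with Benjamini-Hochberg adjustment over all regions. Counts were tested with edgeR 4.0.16 (quasi-likelihood, TMM, filter by expression) over all 6 shoot libraries under R 4.3.3, and DESeq2 1.42.0 was an alternative. log2 CPM has a prior count of 0.5. Peak numbers and list medians were compared by exact permutation. Scripts were tested on simulated data. Shares carry 95% Wilson intervals.

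Named are list genes with a region whose symbol lies on the same chromosome and in the same order in a RefSeq table of another assembly, in which 0 identifiers matched directly, plus 2 regions each way by smallest p and 2 per genotype-only class by fold. Symbols come from published nomenclature and passed for 48 of 66 genes. Members, lists and rules were chosen with earlier results of these data known. A peak on HygR was left out.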

Additional observations from a re-analysis of the deposited data

Results flagged for a closer look

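A peak on a feature named HygR, placed on a sequence named ChrI, occurred in wild-type shoot replicate 2 with a fold of 4 and a log10 FDR of -5.39, and in no other of the lists read here. The labels do not say whether HygR is a spike-in or a marker gene, and the peak was left out of all comparisons.

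The lists of peaks in repeats, which enter no comparison above, were longer in FTOmut shoot, with 8756 and 6448 peaks against 4947 and 5790 in wild type. The means were 7602 ± 1632 and 5368.5 ± 596.1 (SD, n = 2 lists each), a ratio of 1.42, and the exact two-sided permutation test gave p = 0.333, the smallest it can give. For peaks in genes the difference was 6.50%.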

How the results depend on the processing

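Precision was limited by 2 lists per genotype and by the unknown depth of the m6A-seq libraries. At shared regions 0 calls were made under every alternative tried (centred lists, log2(fold + 1), regions with 1 peak in each list, all 6 shoot lists, a log10 FDR of at most -5, overlap of at least 50% of both peaks, and each list left out). For FTO against FTOmut 0 were called with centred lists and with each FTO or FTOmut list left out, the latter added after seeing the data. With the replicate block, limma's smallest adjusted p was 0.507 and 0.691 in these comparisons with 0 calls, and edgeR called 0 genes. The deviations of same-numbered samples from their group means correlated at -0.01 in peak folds and 0.17 in RNA-seq, and the labels tie equal numbers to no shared culture or day, so the block is given only here.

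The surplus of FTOmut peaks was 519 at a log10 FDR of at most -5. With that threshold 465 regions were FTOmut-only and 304 wild-type-only, with overlap of at least 50% of both peaks 592 and 320, and with whole spans 577 and 288. All folds exceeded 2, so a minimum fold of 2 changed nothing. Leaving out each list gave 998 to 1814 FTOmut-only and 542 to 1158 wild-type-only regions, where fewer lists have to agree. The log2 difference of list medians turned to -0.031 over all peaks of a list, a set that includes the weaker regions, and lay between 0.02 and 0.12 with each list left out.

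edgeR called 241 genes with no filter, DESeq2 378, and edgeR between 0 and 4305 with each library left out; the cause was not tested. Among 17 named regions, 2 of 118 other alternatives changed sign, OsDRM2 to -0.033 and phyB to -0.022 with centred lists, and 0 were called. With each list left out 9 of 68 values changed sign: OsELF3-1 ranged from -0.12 to 0.93, IPA1 from -0.58 to 1.25, OsMET1b from -0.029 to 2.27, OsDRM2 from -0.52 to 0.59, phyB from -0.036 to 0.13 and PHR2 from -0.044 to 0.45. Chosen after seeing the data, each RNA-seq library was also left out for the genotype-only classes: relative to all tested genes, the median log2 RNA change of genes with wild-type-only regions ranged from -0.19 to 0.083 and that of genes with FTOmut-only regions from 0.044 to 0.30. Leaving out lists for peak numbers was likewise added later.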
